A study of Rattus norvegicus with 10 samples.

Results

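The inhibin and activin subunit genes Inha, Inhba and Inhbb were followed through a time course of follicle-stimulating hormone (FSH) in cultured rat Sertoli cells, the supporting cells of the seminiferous epithelium. They were measured by all probe sets, dim ones included, whose single gene symbol in the platform's probe annotation is one of these 3 names. There were 4 of them among 8740 probe sets that are not array controls, of which 7006 carry exactly 1 symbol, for 4736 genes in all. Inha had 2 probe sets (M36453_at and M32754cds_s_at), Inhba had 1 (M37482_at) and Inhbb had 1 (M32757cds_at).

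Total RNA was hybridised to 10 Affymetrix rat arrays, 2 for each of 5 groups, numbered replicate 1 and replicate 2. The label of 1 array of the 2 h group gives no number, and that array was taken as replicate 1. The cells came from rats 20 days old and were cultured untreated (0 h, the control) or with FSH for 2, 4, 8 or 24 h. The labels used here give no strain, FSH dose or culture medium, and no untreated culture later than 0 h, so an effect of FSH and an effect of time in culture cannot be told apart. Nothing in the labels tells whether the arrays of a group came from separate cultures. The p-values therefore describe the spread among these arrays, and that spread may be technical. Since bulk RNA was measured, fewer cells of a type and less RNA per cell cannot be told apart either.

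Inhibins and activins are secreted dimers of the transforming growth factor beta family. An alpha subunit, made from Inha, joined to a beta subunit, made from Inhba or Inhbb, gives an inhibin, whereas a pair of beta subunits gives an activin. Inhibin B, the dimer of alpha and beta B, is the main circulating inhibin of males; it comes largely from Sertoli cells and restrains FSH release by the pituitary. Activins bind the type II receptors Acvr2a and Acvr2b and the type I receptor Acvr1b, which act through Smad2 and Smad3, and follistatin (Fst) binds activin and blocks it. FSH acts through its receptor Fshr on cyclic AMP and protein kinase A. The transcription factors CREB, steroidogenic factor 1 (Nr5a1) and GATA proteins are known to act at the Inha promoter, and ICER, a repressor made from Crem, is known to lower Inha transcription in rat granulosa cells.

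The promoters of Inha and Inhba are shown because Inha had a called change, at 8 h on the probe set M36453_at, and Inhba had none. The test of the difference between Inha and Inhba is given further on. Each line holds the 250 bases directly before a transcription start, taken from RefSeq on the rat assembly GRCr8 and read 5′ to 3′ along the gene's strand. Capitals mark matches, on either strand, to one of 3 short motifs. The first is CGTCA, the half-site of the cyclic AMP response element that CREB binds. The second is AGGTCA, a half-site bound by nuclear receptors such as steroidogenic factor 1. The third is AGATA, a site of the GATA factors.
Inha, chr9:84442859-84443108, plus strand: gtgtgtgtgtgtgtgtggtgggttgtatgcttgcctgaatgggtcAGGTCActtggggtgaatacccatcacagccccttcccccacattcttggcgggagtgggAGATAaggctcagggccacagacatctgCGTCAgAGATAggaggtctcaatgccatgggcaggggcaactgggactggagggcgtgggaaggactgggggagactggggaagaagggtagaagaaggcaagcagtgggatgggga
Inhba, chr17:53804509-53804758, minus strand: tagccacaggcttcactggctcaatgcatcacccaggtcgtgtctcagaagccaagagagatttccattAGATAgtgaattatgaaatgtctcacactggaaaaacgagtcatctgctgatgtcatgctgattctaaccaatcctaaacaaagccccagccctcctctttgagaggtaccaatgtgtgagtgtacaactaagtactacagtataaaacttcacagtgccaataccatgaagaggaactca

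The Inha window held CGTCA at 117 to 113 bases before the start, AGGTCA at 205 to 200 bases, and AGATA at 145 to 141 and again at 111 to 107 bases. The CGTCA and the second AGATA are thus separated by a single base. The Inhba window held AGATA alone, at 181 to 177 bases before its start. That start lies inside the annotated extent of Inhba (53787159 to 53810942), so the window belongs to a start within the gene and not to its outermost end. The Inhbb window (chr13:33089374-33089623, minus strand) held no match to the 3 motifs. The complete palindrome TGACGTCA, which contains CGTCA on both strands, was in none of the 3 windows. Over 33469 RefSeq promoter windows of the same 250 bases, CGTCA was in 18.2%, AGGTCA in 14.1%, AGATA in 27.8% and TGACGTCA in 1.59%. The 3 short motifs stood together, as they do for Inha, in 191 windows, or 0.571%. They are sites of factors already known to act at the Inha promoter. Their presence there was thus likely in advance, and the share is no test of it. A match describes letters in these windows and does not show that a factor binds there.

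All values below are intensities scaled so that every array had the same 75th percentile, 108, and changes are differences of log2 values after values under 13.5 were set to that floor. A probe set entered the test across the table when its mean over the 10 arrays reached 32.0, which 4439 did. Both Inha probe sets and the Inhba probe set passed, and the Inhbb probe set did not. A change was called when its adjusted p (limma, Benjamini-Hochberg over all 4439) was under 0.05. Replicate numbers paired the samples, so a second fit carried the number as a block, and its value is given where it changes a call.

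The Sertoli label was checked by summed marker levels. Of 11 Sertoli markers 7 were measured and summed to 7953 to 13686 on treated and 8872 to 15776 on control arrays. Of 13 germ cell markers 10 were measured, and on replicate 1 they summed to 904, 555, 536, 475 and 238 at 0, 2, 4, 8 and 24 h, lower at each later time. On replicate 2 they summed to 2181, 2546, 2169, 2575 and 2341. The part of this sum in the changes over time was not tested, and Odf1 and Tnp2 were under the floor on all arrays. Single germ cell markers did not all follow the sum on replicate 1. There Ldhc, the brightest, read 571, 139, 109, 121 and 58.6 at 0, 2, 4, 8 and 24 h. Sycp3 read 23.0, 193, 170, 107 and 21.9 at the same times, so it was higher at 2, 4 and 8 h than at 0 h. The peritubular myoid markers, 6 of 6 measured, summed to 204 to 2037 on treated and 251 to 426 on control arrays, with 2037 on the 24 h array of replicate 1. Leydig (3 of 5 measured), macrophage (4 of 6) and endothelial markers (3 of 5) summed to 33.5 to 113, 96.5 to 158 and 38.5 to 106 on treated arrays, and to 64.7 to 112, 111 to 144 and 75.2 to 87.6 on control arrays. The Leydig enzyme gene Cyp17a1 read at most 17.7. The other measured Leydig genes were brighter: Hsd17b3 read 14.2 to 44.2, and Lhcgr 15.5 to 70.7 on M61211cds_s_at, which passed the intensity filter. The 3′ over 5′ signal of actin, a measure of RNA quality, was 0.928 to 1.17 on replicate 1 and 1.48 to 1.76 on replicate 2. The germ cell sum and this ratio were higher on replicate 2 at all 5 times, and the Sertoli sum was higher on replicate 1 at all 5. At 0 h the Sertoli sum was 15776 on replicate 1 and 8872 on replicate 2, and at 24 h 10559 and 7953. Most of it was Clu, at 13806 on replicate 1 and 7708 on replicate 2 at 0 h. Shbg, the next brightest marker, was higher on replicate 1 at 0 h and on replicate 2 at 2, 4, 8 and 24 h. Inha was higher on replicate 1, as given next, and the part of these measures in that difference was not tested.

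Inha, the alpha subunit shared by all inhibins, was the member that moved most over the time course, and its rise at 8 h was 10.3-fold on the probe set M36453_at. On replicate 1 this probe set read 286.8 at 0 h, 738.8 at 2 h, 1642 at 4 h, 2944 at 8 h and 1429 at 24 h. On replicate 2 it read 141.0 at 0 h, 352.2 at 2 h, 1138 at 4 h, 1456 at 8 h and 819.6 at 24 h. In both replicates the 8 h array was the highest and the untreated array the lowest, and all 8 treated arrays lay above both controls. The means were 214 ± 103 at 0 h, 545 ± 273 at 2 h, 1390.0 ± 356 at 4 h, 2200.2 ± 1052 at 8 h and 1124 ± 431 at 24 h (SD, n = 2 each). Set against the 8 h mean, the level was 9.72% at 0 h, 24.8% at 2 h, 63.2% at 4 h and 51.1% at 24 h.

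The log2 changes of M36453_at against 0 h were 1.34 at 2 h, 2.77 at 4 h, 3.36 at 8 h and 2.43 at 24 h, each with a standard error of 0.55. These are 2.54-fold, 6.80-fold, 10.3-fold and 5.38-fold. The 8 h rise was called (adjusted p = 0.0302, limma), in a comparison where 0.766% of all tested probe sets were called. Those at 2 h, 4 h and 24 h were not called, with adjusted p of 0.942, 0.0622 and 0.542, where 0.676%, 0.856% and 0% of tested probe sets passed (before adjustment, 204 had p under 0.05 at 24 h). With the replicate number as a block, the standard error was 0.26 and the probe set was called at all 4 times, with adjusted p of 0.0403 at 2 h, 0.000480 at 4 h, 0.000148 at 8 h and 0.0140 at 24 h. In that fit 1.22%, 2.95%, 2.68% and 0.0901% of tested probe sets were called at 2, 4, 8 and 24 h, the last being 4 probe sets of the whole table. Ranked by the size of the rise among the 4439 tested probe sets, M36453_at stood at 88 at 2 h, 30 at 4 h, 17 at 8 h and 6 at 24 h.

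The 8 h call without the block depended on single arrays. It was kept in 4 of 10 leave-one-out fits, namely those without a 2 h or a 24 h array. It was lost without control replicate 1 (adjusted p = 0.0645, limma), control replicate 2 (0.166), 4 h replicate 1 (0.0584), 4 h replicate 2 (0.0557), 8 h replicate 1 (0.330) or 8 h replicate 2 (0.0629), while the log2 change stayed between 2.85 and 3.88. Without the intensity filter the change was 3.36 with an adjusted p of 0.156. Over all 18 alternatives the adjusted p ran between 0.000148 and 0.330.

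Each treated array was also set against the control of its own replicate number. The log2 changes of M36453_at were 1.37 at 2 h, 2.52 at 4 h, 3.36 at 8 h and 2.32 at 24 h on replicate 1, and 1.32, 3.01, 3.37 and 2.54 at the same times on replicate 2. The 8 h array was 10.3 times its own control on both. The levels themselves differed by number: replicate 1 was 1.44 to 2.10 times replicate 2, and higher at 5 of 5 times. That difference, replicate 2 minus replicate 1, was -0.89 on the log2 scale (adjusted p = 0.00828, limma with the block), in a comparison where 15.2% of tested probe sets were called.

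**Figure D1:**
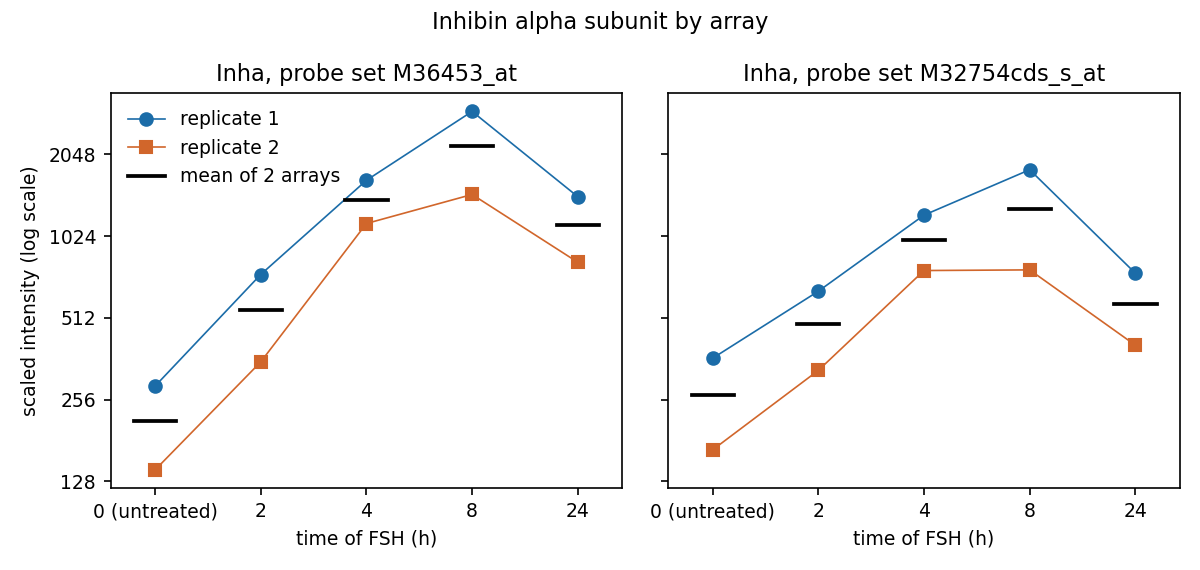
Scaled intensity (log axis) of both Inha probe sets on each array against hours of FSH, with 1 panel for each probe set, 1 line for each replicate number and a black bar at the mean. The 8 h array is the highest of its replicate and the 0 h array the lowest in both probe sets, and replicate 1 lies above replicate 2 at all 5 times.

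The second Inha probe set, M32754cds_s_at, has the suffix that Affymetrix gives to probe sets whose probes may match more than 1 transcript. It read 363.3, 641.1, 1222, 1796 and 746.9 at 0, 2, 4, 8 and 24 h on replicate 1, and 167.1, 327.7, 764.1, 768.3 and 405.8 at the same times on replicate 2. In both replicates the 8 h array was the highest and the 0 h array the lowest, and 7 of 8 treated arrays lay above both controls. The exception was the 2 h array of replicate 2, so the 2 h group overlapped the controls. Its means were 265 ± 139 at 0 h, 484 ± 222 at 2 h, 993 ± 324 at 4 h, 1282 ± 727 at 8 h and 576 ± 241 at 24 h (SD, n = 2 each).

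The log2 changes of M32754cds_s_at against 0 h were 0.90 at 2 h, 1.97 at 4 h, 2.25 at 8 h and 1.16 at 24 h (standard error 0.59), or 1.86-fold, 3.92-fold, 4.77-fold and 2.23-fold. None was called, with adjusted p of 0.999, 0.258, 0.180 and 0.996 (limma). With the block it was called at 4 h (adjusted p = 0.00366) and 8 h (0.00150), and not at 2 h (0.261) or 24 h (0.174). Over 10 arrays the log2 values of both Inha probe sets gave a Pearson r of 0.955 and a Spearman rho of 0.964, from the same hybridisations. The difference between replicate numbers was -0.97 (adjusted p = 0.00518, limma with the block), with replicate 1 at 1.60 to 2.34 times replicate 2.

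No change of Inha between successive times was called. M36453_at changed by 1.42 at 4 h against 2 h, 0.60 at 8 h against 4 h and -0.94 at 24 h against 8 h, all with a standard error of 0.55. M32754cds_s_at changed by 1.08, 0.28 and -1.09 in the same comparisons, with a standard error of 0.59. The smallest adjusted p with the block was 0.100, for M32754cds_s_at at 24 h against 8 h (limma). Of all tested probe sets 0%, 0% and 0.225% were called in these 3 comparisons, and 0%, 0.0901% and 1.15% with the block. At an unadjusted p under 0.05 the counts at 4 h against 2 h and 8 h against 4 h were 160 and 152. The 95% interval of the change at 24 h against 8 h was -2.18 to 0.31 for M36453_at and -2.42 to 0.24 for M32754cds_s_at. On M36453_at the 24 h array stood at 48.5% of the 8 h array in replicate 1 and 56.3% in replicate 2. Over the whole time course limma's F test gave M36453_at an adjusted p of 0.0802 and M32754cds_s_at 0.497, where 0.991% of tested probe sets were called. With the block these became 0.000757 and 0.00490, where 3.22% were called.

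Inhba, the beta A subunit of inhibin A and activin A, showed no called change at any time. Its probe set read 29.2, 65.3, 76.9, 63.7 and 57.6 at 0, 2, 4, 8 and 24 h on replicate 1, and 65.8, 36.3, 61.0, 45.8 and 44.99 on replicate 2. The control arrays were the lowest and the second highest of the 10, and 7 of 8 treated arrays lay between them. The exception was the 4 h array of replicate 1, which lay above both. The means were 47.5 ± 25.9 at 0 h, 50.8 ± 20.5 at 2 h, 68.9 ± 11.2 at 4 h, 54.8 ± 12.7 at 8 h and 51.3 ± 8.93 at 24 h (SD, n = 2 each).

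The log2 changes of Inhba against 0 h were 0.15 at 2 h, 0.64 at 4 h, 0.30 at 8 h and 0.22 at 24 h (standard error 0.49), with adjusted p of 0.944 or above (limma) and a lowest value with the block of 0.713. Their 95% intervals were -0.95 to 1.25, -0.45 to 1.74, -0.80 to 1.40 and -0.88 to 1.32 at 2, 4, 8 and 24 h. Within a replicate number the directions were opposite. On replicate 1 the 4 treated times were 1.16, 1.40, 1.13 and 0.98 above the control, and on replicate 2 they were 0.86, 0.11, 0.52 and 0.55 below it. Without control replicate 1 the 8 h change was -0.28, and without control replicate 2 it was 0.89.

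Inhbb, the beta B subunit of inhibin B and activin B, gave a signal near the floor. It read 26.8, 24.1, 10.2, 71.9 and 40.2 at 0, 2, 4, 8 and 24 h on replicate 1, and 12.4, 7.17, 12.3, 8.01 and 9.59 on replicate 2. Of the 10 arrays 6 were under the floor of 13.5, among them all 5 of replicate 2. The 8 h array of replicate 1 was the highest, at 71.9, and the 8 h array of replicate 2 was under the floor. The groups overlapped with the controls at 2, 8 and 24 h. At 4 h both treated readings were below both control readings, but 3 of these 4 were under the floor, where values have no order. In a fit without the intensity filter the log2 changes were -0.08, -0.50, 0.71 and 0.29 at 2, 4, 8 and 24 h (standard error 0.93, floored values), and none was called at an adjusted p of 1 (limma) or, with the block, at 0.744 or above. A change of Inhbb was not measurable at this signal.

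**Figure D2:**
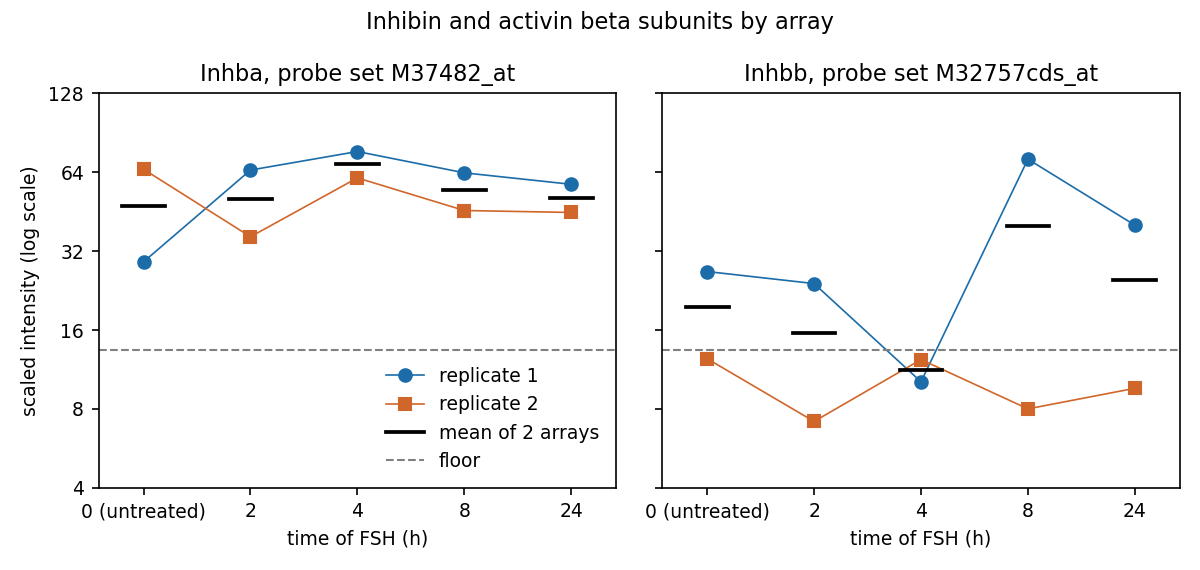
Scaled intensity (log axis) of the Inhba and Inhbb probe sets on each array against hours of FSH, with 1 panel for each gene, 1 line for each replicate number, a black bar at the mean and a dashed line at the floor of 13.5. Inhba stays between 29.2 and 76.9 on all 10 arrays, and 6 of the 10 Inhbb values are under the floor.

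**Figure D3:**
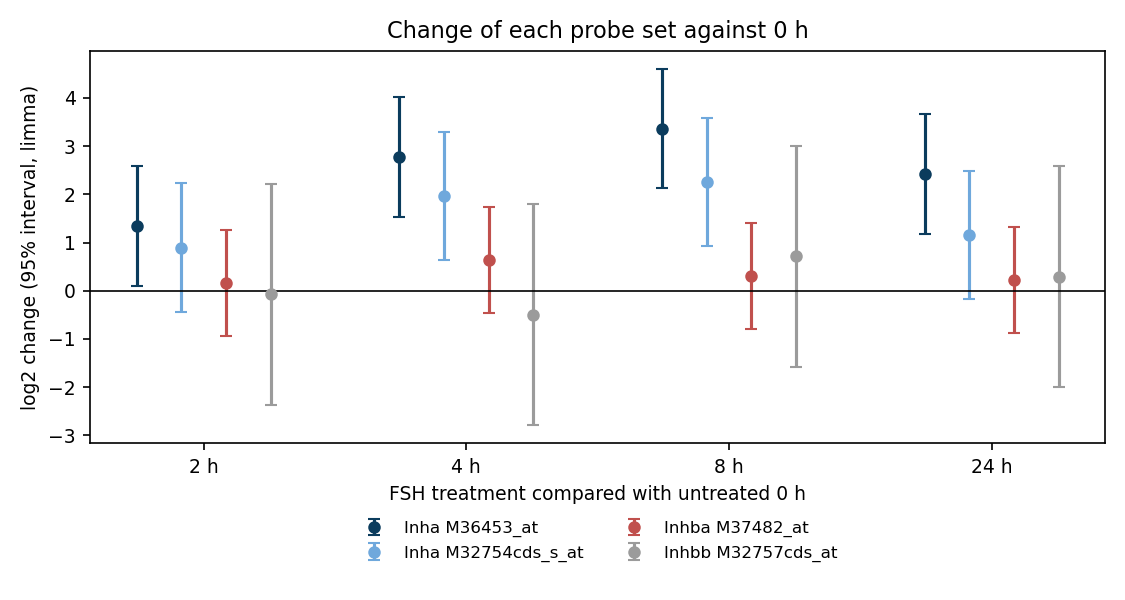
Log2 change against 0 h, with 95% intervals from limma, for the member probe sets at 2, 4, 8 and 24 h of FSH; Inhbb comes from the fit without the intensity filter. Inha M36453_at reaches 3.36 and M32754cds_s_at 2.25 at 8 h. The intervals of Inhba include 0 at all 4 times, and those of M32754cds_s_at include 0 at 2 h and 24 h.

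To set Inha against Inhba without any scaling between arrays, the log2 difference Inha minus Inhba was taken within each array (M36453_at and M37482_at). Since probe sets differ in brightness per transcript, only the change of this difference between times is read. It was 1.10 and 3.30 on the untreated arrays, 3.28 and 3.50 at 2 h, 4.22 and 4.42 at 4 h, 4.99 and 5.53 at 8 h, and 4.19 and 4.63 at 24 h. The 8 h arrays were highest, the 4 h and 24 h arrays overlapped each other, and the 2 h arrays overlapped the higher control. Against the control mean the difference was larger by 1.19 at 2 h, 2.12 at 4 h, 3.06 at 8 h and 2.21 at 24 h. An exact permutation test over all 945 divisions of the arrays into 5 groups of 2 gave p = 0.00635, where the smallest possible is 0.00106. With arrays exchanged only within their replicate number, p was 0.0167 (2 of 120, smallest possible 0.00833). The probe sets disagreed here: with M32754cds_s_at in place of M36453_at the exact permutation p was 0.251. In fits without 1 array the p of M36453_at lay between 0.00317 and 0.113, under 0.05 only when a control array was the one left out. Without a treated array p was 0.0561 to 0.113, the highest without 8 h replicate 1.

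**Figure D4:**
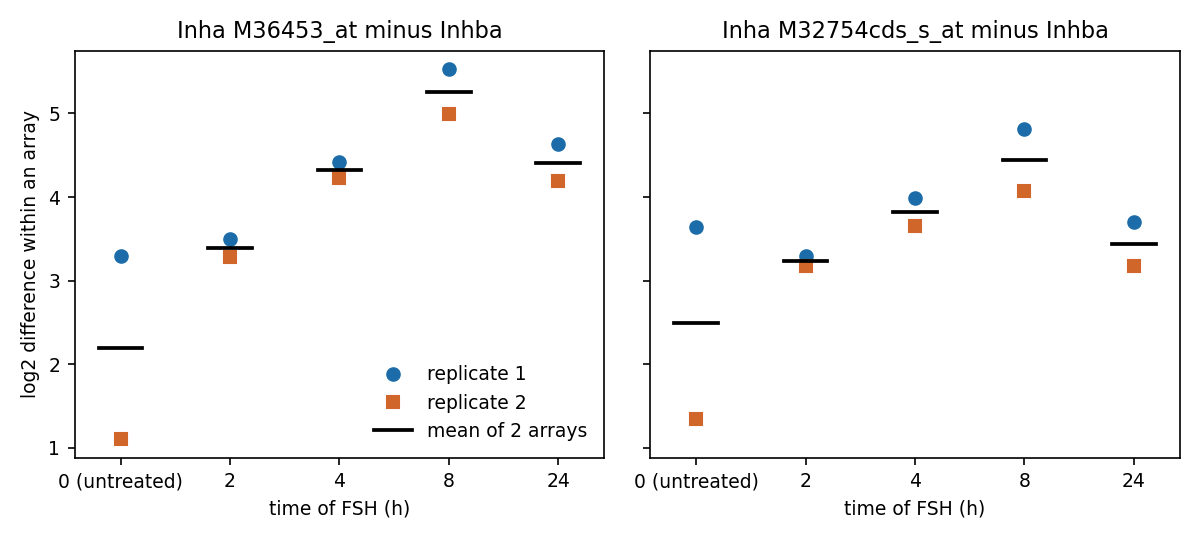
Within-array log2 difference of Inha minus Inhba against hours of FSH, with M36453_at on the left and M32754cds_s_at on the right, 1 point for each array and a black bar at the mean. With M36453_at the 8 h arrays stand at 4.99 and 5.53, above all 8 others. With M32754cds_s_at they stand at 4.07 and 4.82, also above all 8 others, of which the highest is a 4 h array at 3.99. The controls there stand at 1.35 and 3.64.

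The members were then set beside the genes of the activin pathway, a list of 28 genes covering other beta subunits, receptors, binding proteins, processing enzymes and Smads. Of these 17 had a probe set with a single symbol and 8 had one that passed the intensity filter. Taking the brightest tested probe set of each gene, limma called none at 2, 4, 8 or 24 h, where it called 0.676%, 0.856%, 0.766% and 0% of all tested probe sets. With the block it also called none, beside 1.22%, 2.95%, 2.68% and 0.0901%. At an unadjusted p under 0.05 there was 1 of 8 in both fits, Fstl1, higher at 24 h, where 4.6% of all tested probe sets passed that level, and 9.26% with the block. The median log2 change of the 8 genes was -0.10, -0.10, -0.17 and 0.04 at 2, 4, 8 and 24 h, and that of all tested probe sets was -0.02, -0.03, -0.02 and 0.02. Acvr2b, a type II activin receptor, read 123 to 283 over the 10 arrays on its tested probe set M87067_at and changed by -0.08, -0.13, -0.20 and -0.02. Its other probe set, L10640_s_at, was under the filter, read 6.38 to 21.4 and was under the floor on 8 of 10 arrays. Acvr1b, the type I activin receptor, changed by -0.13, -0.04, -0.27 and -0.06. The largest change of the 8 genes in size was that of Fstl1, follistatin-like 1, by its probe set rc_AA849769_g_at, at 1.00 at 24 h (adjusted p = 0.996, limma), and its other tested probe set had 1.18. Fst, whose protein blocks activin, Tgfbr3, the inhibin co-receptor betaglycan, Acvr2a and Acvr1 were all under the filter. Their ranges over the 10 arrays were 4.66 to 37.8 for 2 Fst probe sets, 7.70 to 61.5 for 2 Tgfbr3 probe sets, 1.36 to 37.3 for 2 Acvr2a probe sets and 18.6 to 39.5 for Acvr1. One Acvr2a probe set, S96418_s_at, was under the floor on all 10 arrays.

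A list of 22 genes upstream of Inha covered the FSH receptor, the cyclic AMP pathway and the transcription factors of the Inha promoter. Of these 18 had a probe set and 14 were tested. By the same probe set choice 3 were called higher at 2 h, 2 at 4 h, 1 at 8 h and 0 at 24 h, in both fits of limma. Beside them stand 0.676%, 0.856%, 0.766% and 0% of all tested probe sets called at these times, and 1.22%, 2.95%, 2.68% and 0.0901% with the block. None was called lower. This list was chosen with earlier results of these data known, so its calls are not a test against the share of all probe sets. Some changes that were not called had an unadjusted p under 0.05, and are named after their values were seen. Without the block these were higher values of Cebpb at 4 h and Prkar1a, a regulatory subunit of protein kinase A, at 8 h. With the block there were also higher values of Cebpb at 8 and 24 h and lower values of Nr5a1 at 4 and 8 h and of Fshr at 8 and 24 h. Of all tested probe sets 4.57%, 7.75%, 9.3% and 4.6% passed that level at 2, 4, 8 and 24 h without the block, and 7.5%, 12.2%, 15.5% and 9.26% with it. The median change of the 14 genes was 0.07, 0.16, 0.25 and 0.16. The genes called were Crem, Nr4a1, an orphan nuclear receptor, and Cebpb, a leucine zipper factor.

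Crem, the source of ICER, rose at 2, 4 and 8 h of FSH. Its probe set S66024_at read 24.8 and 10.2 in untreated cells (the lower under the floor), 204 and 182 at 2 h, 547 and 519 at 4 h, 396 and 384 at 8 h, and 35.7 and 25.6 at 24 h. The groups at 2, 4 and 8 h did not overlap the controls. Its log2 changes were 3.40, 4.87 and 4.41 at 2, 4 and 8 h (adjusted p = 0.00755, 0.000351 and 0.00116, limma) and 0.73 at 24 h, not called. The 4 h and 8 h calls held in all 18 alternatives; the 2 h call was lost only without 2 h replicate 1 (adjusted p = 0.130). On S66024_at Crem was highest at 4 h and M36453_at of Inha at 8 h on the arrays of both replicates. The other bright Crem probe sets, S66024_g_at and U04835_at, had called rises at 4 h of 3.58 and 3.40. S66024_g_at, whose call entered the list counts, kept its 4 h call in all 18 alternatives. Its 2 h rise of 2.61 (adjusted p = 0.0151) was lost without control replicate 1 (0.0670), control replicate 2 (0.0960), 2 h replicate 1 (0.182), 2 h replicate 2 (0.106) or the filter (0.0646). Its 8 h rise of 2.78 (0.0102) was lost without control replicate 1 (0.0595), control replicate 2 (0.0648) or 8 h replicate 1 (0.143). The 4 h call of U04835_at was lost in 8 of 10 leave-one-out fits (all but those without a 24 h array) and without the filter. A further one, Z15158mRNA_at, was under the filter.

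Nr4a1 rose by 4.15 at 2 h and 3.27 at 4 h on U17254_g_at (adjusted p = 0.0151 and 0.0498, limma) and had 0.53 at 8 h, not called. The 2 h call was lost without either control or either 2 h array (adjusted p up to 0.182) and without the filter (0.146). The 4 h call was lost in 8 of 10 leave-one-out fits, being kept only without a 24 h array (adjusted p up to 0.374), and also under median scaling (0.0545), without the intensity trend (0.0560) and without the filter (0.213). Its other probe set, U17254_at, had 2.86 at 2 h, not called (adjusted p = 0.204) but called with the block (0.00473). Cebpb rose by 3.26 at 2 h on X60769mRNA_at and by 3.90 on S77528cds_s_at (adjusted p = 0.0184 each). Both control readings of S77528cds_s_at were under the floor, so its 3.90 is counted from the floor and is a lower bound; with the higher floor it was 2.90. Both Cebpb calls were lost without either control or either 2 h array (adjusted p up to 0.266) and without the filter (0.146 and 0.138). Fshr, the receptor itself, had -0.32, -0.50, -0.95 and -0.66 at 2, 4, 8 and 24 h on L02842_g_at, none called. Its other probe set, L02842_at, was under the filter and under the floor on 9 of 10 arrays. Nr5a1 had -1.01, -1.35, -1.24 and -1.15, none called; its control arrays read 144 and 32.0, and its treated arrays 17.4 to 41.9. Gata4 (L22761_at) had -0.07, 0.74, 0.43 and -0.09, and Creb1 was under the filter with 21.1 to 42.4.

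**Figure D5:**
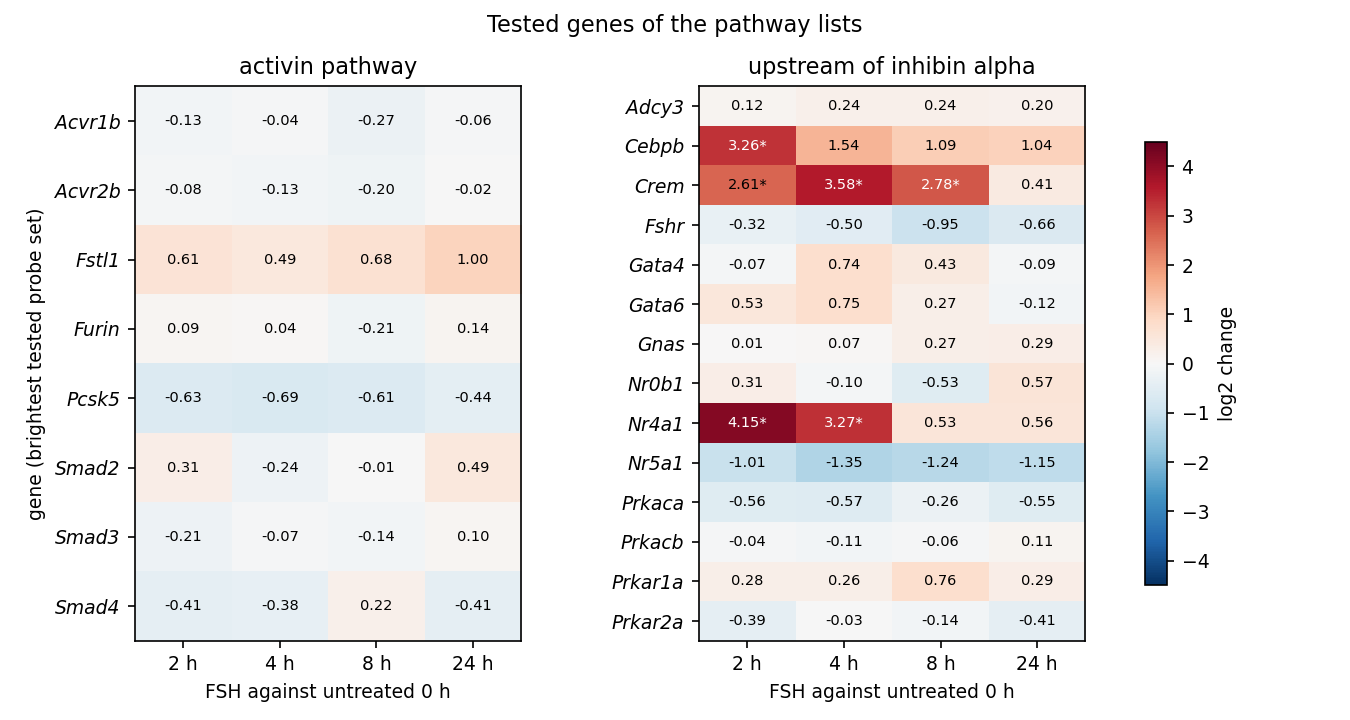
Log2 change against 0 h of each tested gene (brightest tested probe set), printed in each cell and shown by colour (red higher, blue lower), for the activin pathway list and the list upstream of Inha, at 2, 4, 8 and 24 h of FSH, with an asterisk where the change was called. Called changes are those of Crem, Nr4a1 and Cebpb, and none is in the activin pathway list.

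The probe sets most like Inha M36453_at, by Pearson correlation of log2 values over 10 arrays among 3711 candidates, were those of Nmu (0.943), Asns (0.941), Ckb (0.940), Fat1 (0.940), Cd24 (0.938) and Map1lc3a (0.938). Asns, asparagine synthetase, averaged 111, 180, 499, 1037 and 259 at 0, 2, 4, 8 and 24 h. Nmu, the neuropeptide neuromedin U, averaged 142, 183, 350, 407 and 344. Ckb, the brain-type creatine kinase, averaged 12.7, 43.2, 85.0, 154 and 64.6, and Cd24, a surface glycoprotein, 33.2, 151, 418, 563 and 125. Fat1, an atypical cadherin, averaged 28.3, 63.6, 174, 252 and 142, and Map1lc3a, an autophagosome protein, 1060.0, 1408, 2368, 3462 and 1897. All 6 averaged highest at 8 h, as Inha did, which their choice by this correlation makes likely in advance. For Inhba they were Sik2 (0.994), Cyb5b (0.946) and Itgb1 (0.943), among 3712 candidates. The values share the arrays and their scaling, and the correlations are descriptions over 10 arrays.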

How the data were processed

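The authors deposited 1 linear intensity per probe set and array for 10 arrays of 8799 probe sets; the file states no scaling, background step or build, and how it was made is not given in the sources used here. The deposited intensity values were multiplied by array factors of 0.889 to 1.10 to a shared 75th percentile, floored at that percentile divided by 8, and put on a log2 scale. Array controls (59) were dropped, and 4439 probe sets passed a mean of at least the pooled median. limma 3.58.1 in R 4.3.3 fitted 1 mean per group (lmFit, eBayes with an intensity trend, 5 residual degrees of freedom), Benjamini-Hochberg adjusted over all 4439; the block fit had 4. Deviations from group means of same-numbered arrays correlated at 0.110 to 0.698 in all 10 pairs of times, so the numbers, which the labels give, pair the samples. One 2 h array has no number and was taken as replicate 1. The Inha and Inhba difference was tested by exact permutation. The number of arrays limits the precision.

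The genes named were all member probe sets, list genes called in either fit, a set of named pathway genes whatever their values, and the 6 and 3 probe sets most like Inha and Inhba. The members and lists were chosen with earlier results of these data known. Fits were tested on simulated data. Alternatives were the values as deposited, median and quantile scaling, other floors, no filter, no trend, the block, and leaving out each array. Symbols come from the platform annotation and promoters from RefSeq (GRCr8).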

Additional observations from a re-analysis of the deposited data

How the results depend on the processing

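With the replicate block, Inha M36453_at was also called at 2 h (1.34), 4 h (2.77) and 24 h (2.43), and in limma's F test (adjusted p = 0.000757). M32754cds_s_at was then called at 4 h (1.97) and 8 h (2.25), and in the F test (adjusted p = 0.00490). The block changed no other member call. M36453_at at 4 h was also called on the values as deposited (2.74, adjusted p = 0.0444) and after quantile normalization (2.81, 0.0387), and its F test on the values as deposited (0.0493). Without the intensity filter the 8 h change of 3.36 was no longer called, where the test covered 8740 probe sets. With the other Inha probe set, a choice added after seeing the data, the exact permutation p of the within-array difference was 0.251.

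Leaving out 1 array at a time, M36453_at at 8 h ranged over 2.85 to 3.88 and the permutation p over 0.00317 to 0.113. These changes, none of them called, reversed direction: M32754cds_s_at at 8 h against 4 h, -0.33 to 0.89; Inhba at 2 h (-0.43 to 0.74), 8 h (-0.28 to 0.89), 24 h (-0.37 to 0.80) and 24 h against 8 h (-0.32 to 0.15); Inhbb at 2 h (-0.57 to 0.42), 8 h (-0.50 to 1.92), 24 h (-0.50 to 1.08) and 24 h against 8 h (-1.63 to 0.79). The 8 h and 24 h changes of Inhba against 0 h turned when control replicate 1 was left out. The cause of these changes was not tested. Of 568 member results under alternatives, 536 kept direction and side of the threshold, 7 lost a call, 10 gained one and 15 reversed. Most of these results were not called to begin with. All 7 losses were of M36453_at at 8 h, the only member change called without the block, which had 18 alternatives.

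Counts of called probe sets moved by over 1.5 times. With the block they were 54, 131, 119 and 4 at 2, 4, 8 and 24 h, 4 at 8 h against 4 h, 51 at 24 h against 8 h and 143 in the F test. At 24 h median scaling and quantile normalization gave 2 each and no filter 4. No filter gave 14 at 4 h against 2 h, 13 at 8 h against 4 h and 2 at 24 h against 8 h, where quantile normalization gave 16 and the higher floor 17. Leaving out an array gave 0 to 31 at 2 h, 8 to 28 at 4 h, 5 to 26 at 8 h, 0 to 15 at 24 h against 8 h and 19 to 37 in the F test. Signal over background limits Inhbb, and 2 arrays a group limit the rest.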
